A study of Mus musculus with 6 samples.

Results

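Ribosome footprints on the genes of meiotic cohesin, its protectors and its release factors were followed through mouse oocyte maturation. The 10 genes were taken by name from a list of core subunits (Rec8, Smc1b, Smc3, Stag3 and Rad21), shugoshins (Sgo1 and Sgo2a), separase (Espl1) and release factors (Wapl and Pds5b). All 10 were found among the 22416 genes of the deposited table. Footprints came from Ribo-lite, a form of ribosome profiling for few cells, in which the mRNA pieces held inside ribosomes are kept from nuclease and sequenced. Values were FPKM, that is footprint reads per kilobase of coding sequence and scaled to the reads of the library, so levels of different genes could be set side by side.

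The 6 libraries fell into 3 groups of 2, and each was made from 500 oocytes of wild-type (WT) females. WT_FGO held fully grown oocytes at the germinal vesicle (GV) stage, which rest in prophase of the first meiotic division. WT_MII held control oocytes matured to metaphase II (MII), where the egg waits for fertilization. Treat_MII held MII oocytes that the labels call treated. By the study's methods the agent was BYBX, a small molecule that stabilizes RNA G-quadruplexes (rG4s, four-stranded folds of G-rich RNA), and the controls received its solvent DMSO. Mice were 4 weeks old and received 5 IU of PMSG, a gonadotropin that makes follicles grow, 44 h before their oocytes were collected, and all maturation took place in culture. No mRNA was measured in these 6 libraries, so footprint levels reflect mRNA amount and ribosome loading together.

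Cohesin is a ring of 2 SMC proteins closed by a kleisin and bound by an SA protein. It holds sister chromatids together from DNA replication until division. Oocytes carry versions of these subunits that are made for meiosis: the kleisin REC8 in place of RAD21, SMC1B in place of SMC1A, and STAG3 in place of STAG1 and STAG2. Separase cuts the kleisin, along the arms at the first division and at the centromeres at the second, and shugoshin keeps the centromeric cohesin uncut in between by bringing in the phosphatase PP2A. WAPL, with PDS5 proteins, opens the ring without cutting it. Cohesin loaded before birth must last until ovulation, and its loss with age is known as a source of egg aneuploidy.

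Libraries were shallow, with 94309 to 331304 coding reads each, and the 10 genes together held 54 and 61 reads in WT_FGO, 469 and 571 in WT_MII, and 895 and 731 in Treat_MII. Rec8 had 1 read in all 6 libraries, Stag3 had 5, and Espl1, the highest, had 1079. All 10 oocyte markers were present in every group, with summed FPKM of 29385 to 44911 in WT_FGO, 7537 to 7807 in WT_MII and 14219 to 14745 in Treat_MII. Of 12 markers of granulosa cells, which surround the oocyte in its follicle, 8 were above 0 in WT_FGO, 9 in WT_MII and 8 in Treat_MII, with summed FPKM of 851 to 1708, 390 to 2062 and 297 to 333. The highest sum, in WT_MII_1, came almost wholly from Hsd17b1 (1956 FPKM). WT_FGO_2 was higher than WT_FGO_1 in inhibin alpha (Inha, 747 against 29.0 FPKM), Amh (196 against 57.4) and Inhba (139 against 0). Cyp11a1 (66.3 against 0), Foxl2 (33.2 against 0) and Fshr (13.5 against 0) were higher in WT_FGO_2 as well. It was lower only in Hsd17b1 (488 against 730) and Cyp19a1 (24.7 against 35.1).

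The sequences of the 10 transcripts were searched for G-quadruplex motifs, since the treatment binds these folds, and for the cytoplasmic polyadenylation element (CPE), the 3′ UTR signal through which CPEB proteins control stored mRNAs in oocytes. The G-quadruplex motif was 4 runs of GGG or longer, with loops of 1 to 7 bases between runs, on the transcript strand. Among the 10 genes only Pds5b held it, in its 5′ UTR, at chr5:150673839-150673854 on the plus strand (GRCm38). Pds5a, its close relative, held 2 matches in its 5′ UTR on the minus strand, at chr5:65698150-65698168 and chr5:65698048-65698071. The 3 matches are shown because the study's agent acts on such motifs, 5′ to 3′, with runs of at least 3 G in capitals and other bases in lower case. In Pds5b the longest run counts as 2 runs with the G between them as their loop:
Pds5b: GGGGaGGGGGGGcGGG
Pds5a, upstream match: GGGGcacGGGcGGGccGGG
Pds5a, downstream match: GGGcGGGcgcGGGGGacgcgcGGG
Of 14806 tested genes with a transcript, 7.01% held such a motif in the 5′ UTR, 4.51% in the coding sequence and 10.5% in the 3′ UTR.

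Sgo2a alone among the 10 had a CPE (TTTTAT or TTTTAAT) in the last 100 bases of its transcript. The 30 bases around it lie in the 3′ UTR at chr1:58025825-58025854 on the plus strand of GRCm38, with 57 bases between the element and the transcript's end, and are printed with the element in capitals because Sgo2a had among the highest changes of the 10 genes with maturation:
Sgo2a: acttatgtatcaTTTTATcattaattctct
Of the tested genes with a 3′ UTR of at least 100 bases, 18.7% held a CPE in that window. Rec8 has an annotated 3′ UTR of 34 bases and was searched over those bases only. The polyadenylation hexamer AATAAA was not found in this window of Sgo2a, and was found in that of Espl1, Pds5b, Rad21, Sgo1, Stag3 and Wapl, and of 62.6% of tested genes. These matches describe letters in 1 annotated transcript per gene, and use of the elements was not measured.

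**Figure D1:**
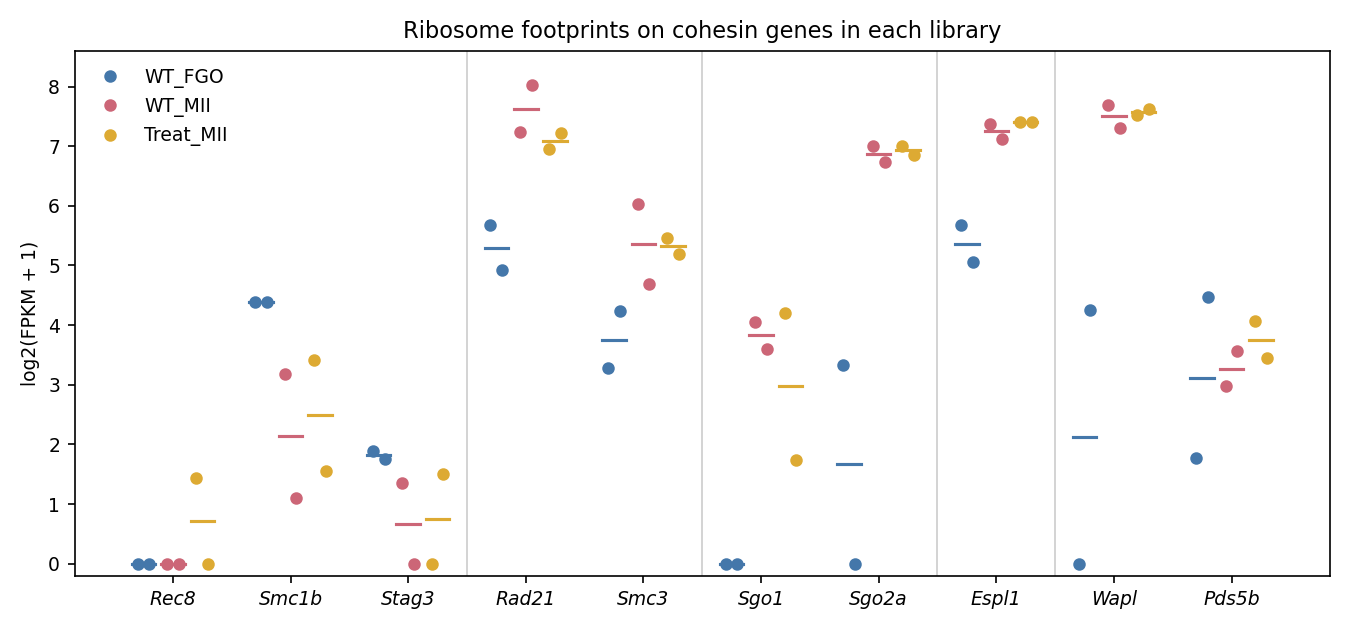
Footprint level of each gene in each library, as log2(FPKM + 1) on the y axis, with a point per library, a bar at the mean of the 2 libraries of a group, and vertical lines between meiosis-specific subunits, general subunits, shugoshins, separase and release factors. Points of WT_MII and Treat_MII lie above both WT_FGO points for Rad21, Smc3, Sgo1, Sgo2a, Espl1 and Wapl, while Rec8 and Stag3 stay below 2 throughout.

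With maturation, footprints on the kleisin Rad21, the shugoshin Sgo2a and the separase Espl1 rose, and none of the 10 genes was called lower. The comparison of WT_MII with WT_FGO asks how ribosome occupancy changes between prophase arrest and the arrest at MII. Changes are differences in log2(FPKM + 1), called at a Benjamini-Hochberg adjusted p under 0.05 over the 15127 genes whose mean over the 6 libraries reached 1 FPKM. Of the 10 genes, 9 passed that filter, all but Rec8, and 3 were called higher, against 3.67% of all tested genes called higher and 3.09% called lower. For 6 of the 9 genes the WT_MII values were both higher than the WT_FGO values, and for 2 both were lower, against 15.3% and 25.8% of all tested genes. The median change of the 9 was 1.89, and that of all tested genes was -0.44.

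The meiosis-specific subunits had few footprints at either stage. Rec8, the meiotic kleisin (chr14:55618037-55625395), was at 0 FPKM in 5 libraries and at 1.70 FPKM, a single read, in Treat_MII_1. With 0 of 15 kleisin reads in WT_FGO, the exact 95% upper limit of the Rec8 share was 21.8%. With 0 of 165 in WT_MII it was 2.21%. Stag3, the meiotic SA subunit (chr5:138280240-138312393), was at 2.70 and 2.38 FPKM at the GV stage, 1.55 and 0 in control MII libraries, and 0 and 1.85 in treated MII libraries. No library held more than 2 reads of it, so a change was not detectable at this depth.

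Smc1b, the meiotic partner of SMC3 (chr15:85064689-85131964), was the best covered of the meiosis-specific genes. It stood at 19.8 and 19.9 FPKM in GV oocytes, 8.10 and 1.16 in control MII oocytes, and 9.67 and 1.94 after treatment. Both WT_FGO libraries lay above the other 4, and the WT_MII libraries differed widely from each other. The maturation change was -2.24 ± 1.10 (SE) with an adjusted p of 0.310 and did not pass the test. It was -3.27 without WT_MII_1 and -1.20 without WT_MII_2. The ratio of read rates, MII over GV, was 0.204 with a 95% counting interval of 0.0647 to 0.555 from 6 and 15 reads. Counting intervals (exact binomial) cover sampling of reads and not the spread between libraries.

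Rad21, the kleisin of mitotic cohesin (chr15:51962240-51991747), rose with maturation. Its level was 50.1 and 29.4 FPKM at the GV stage, 150 and 259 in control MII libraries, and 124 and 149 in treated MII libraries. The 4 MII libraries all lay above both GV libraries, and WT_MII_2 was the highest. The maturation change was 2.33 ± 0.47 (SE), adjusted p 0.0432, and the read rate was 5.46-fold higher (95% counting interval 3.22 to 9.99, 161 against 15 reads).

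Smc3, the SMC subunit of every cohesin ring (chr19:53600398-53645833), did not pass the test. It was at 8.71 and 17.9 FPKM in GV oocytes, 64.8 and 24.9 in control MII oocytes, and 43.0 and 35.8 after treatment. The groups WT_FGO and WT_MII did not overlap, but the WT_MII libraries were 64.8 and 24.9, a wide spread. The change was 1.61 ± 0.70 (SE) with an adjusted p of 0.244, and without WT_MII_1 it was 0.94. Of its 28-base coding words, 4.66% also occur in other genes, so part of its reads may be shared with near-copies.

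Sgo2a, the shugoshin that protects centromeric cohesin in oocytes (chr1:57995971-58025899), rose with maturation from almost no footprints. It stood at 9.11 and 0 FPKM at the GV stage, 127 and 105 in control MII libraries, and 128 and 114 in treated MII libraries. All 4 MII libraries were far above both GV libraries, which held 3 and 0 reads. The change was 5.20 ± 1.07 (SE), adjusted p 0.0445, and the read rate ratio was 26.8 (95% counting interval 9.01 to 131, 158 against 3 reads). The change was 6.87 without WT_FGO_1 and 3.53 without WT_FGO_2. Its paralog Sgo2b shares 11.1% of the 28-base words of Sgo2a, so a part of the reads of both could be split between them.

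Sgo1, the other shugoshin (chr17:53674786-53689333), had few reads. It was at 0 FPKM in both WT_FGO libraries, at 15.6 and 11.2 in control MII oocytes and at 17.5 and 2.34 after treatment. Every MII library lay above the GV libraries, but on only 4 and 4 control reads and 9 and 1 treated reads. The fitted change of 3.83 had an adjusted p of 0.109. Set against a floor of 3 reads over the WT_FGO group, the read rate in WT_MII was 1.36-fold higher. For the observed reads, 8 against 0, the 95% counting interval of the ratio began at 0.869, so the reads did not exclude an equal rate. Of its 28-base words, 15.3% also occur in the predicted genes Gm6982 and Gm7739.

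Espl1, the protease separase that cuts the kleisin at anaphase (chr15:102296266-102324357), had the most reads of the 10 genes and rose with maturation. It stood at 50.02 and 32.3 FPKM in GV oocytes, 165 and 139 in control MII oocytes, and 168 and 169 after treatment. The groups did not overlap, and the Treat_MII libraries were almost equal. The maturation change was 1.89 ± 0.40 (SE), adjusted p 0.0464, and the read rate was 3.69-fold higher (95% counting interval 2.76 to 5.03, 377 against 52 reads).

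Wapl, which releases cohesin from chromatin without cutting it (chr14:34673928-34747983), was low in GV and high in MII oocytes, but its change missed the threshold. It was at 0 and 18.1 FPKM at the GV stage, 205 and 158 in control MII libraries, and 183 and 196 in treated MII libraries. All MII libraries were far above both GV libraries, and the GV libraries, with 0 and 7 reads, differed from each other. The change was 5.37 ± 1.29 (SE) with an adjusted p of 0.0673, and the read rate ratio was 18.4 (95% counting interval 8.80 to 46.2, 253 against 7 reads). Without WT_FGO_1 the change was 3.24, and without WT_FGO_2 it was 7.499. WT_FGO_2, which held all 7 of the GV reads, had more Inha, Amh, Inhba, Cyp11a1, Foxl2 and Fshr than WT_FGO_1. It had less Hsd17b1 and Cyp19a1. The part of these markers in the spread was not tested.

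Pds5b, a PDS5 protein that works with WAPL and also with cohesin's acetylation (chr5:150673739-150810690), overlapped between the stages. It stood at 2.40 and 21.1 FPKM in GV oocytes, 6.87 and 10.8 in control MII oocytes, and 15.7 and 9.87 after treatment. The GV libraries, of which WT_FGO_2 was the higher, spanned all 4 MII libraries. The maturation change was 0.15, with a 95% interval from -2.45 to 2.75 (adjusted p 0.979), so a change of several-fold either way could not be told from none.

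**Figure D2:**
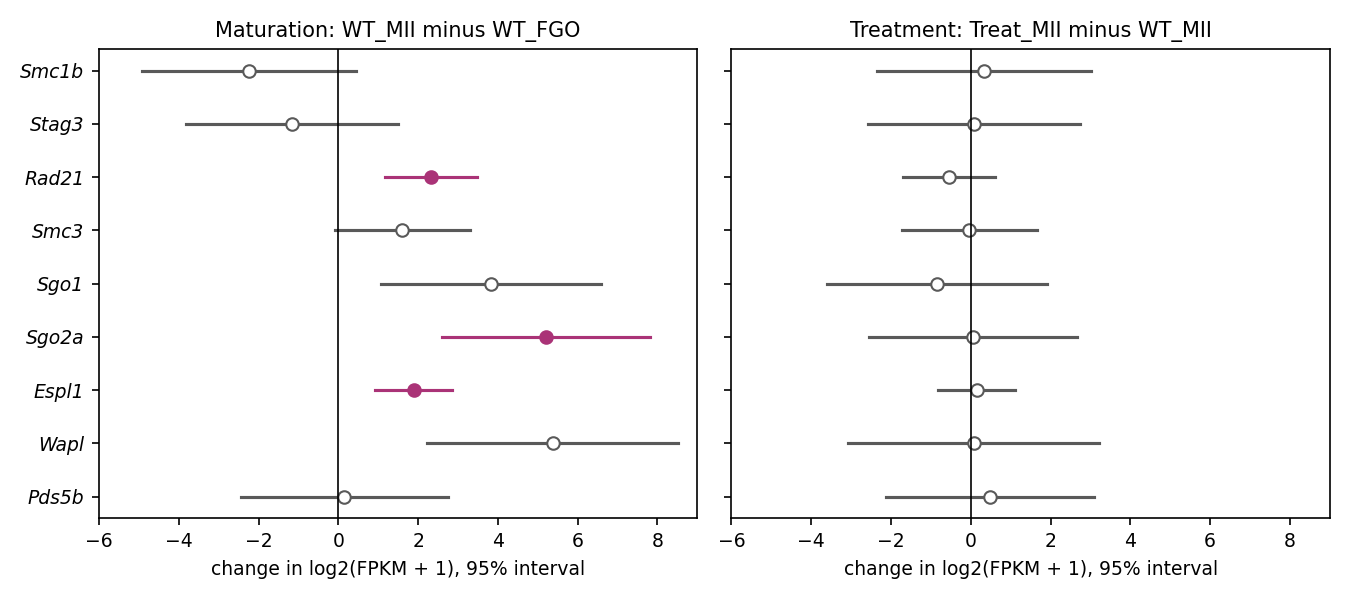
Change in log2(FPKM + 1) for the 9 genes that passed the filter, with maturation on the left and with treatment on the right, as points with 95% intervals from the fit; filled points have an adjusted p under 0.05. Rad21 at 2.33, Sgo2a at 5.20 and Espl1 at 1.89 are filled on the left, and every interval on the right crosses 0.

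The 3 calls lay close to the threshold. With Treat_MII left out, so that only the 2 groups compared set the spread, the adjusted p was 0.197 for Rad21, 0.213 for Sgo2a and 0.176 for Espl1, and no gene of the table was called. Leaving out either WT_MII library or either Treat_MII library ended the calls of Rad21 (adjusted p 0.0900 to 0.153), Sgo2a (0.202 to 0.247) and Espl1 (0.0959 to 0.134). Without WT_FGO_1 the adjusted p was 0.0027 for Sgo2a, 0.0186 for Espl1, 0.0159 for Wapl and 0.0704 for Rad21, and without WT_FGO_2 it was 0.0103, 0.0348, 0.0037 and 0.123. All of these settings kept the direction of each of the 4 changes.

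**Figure D3:**
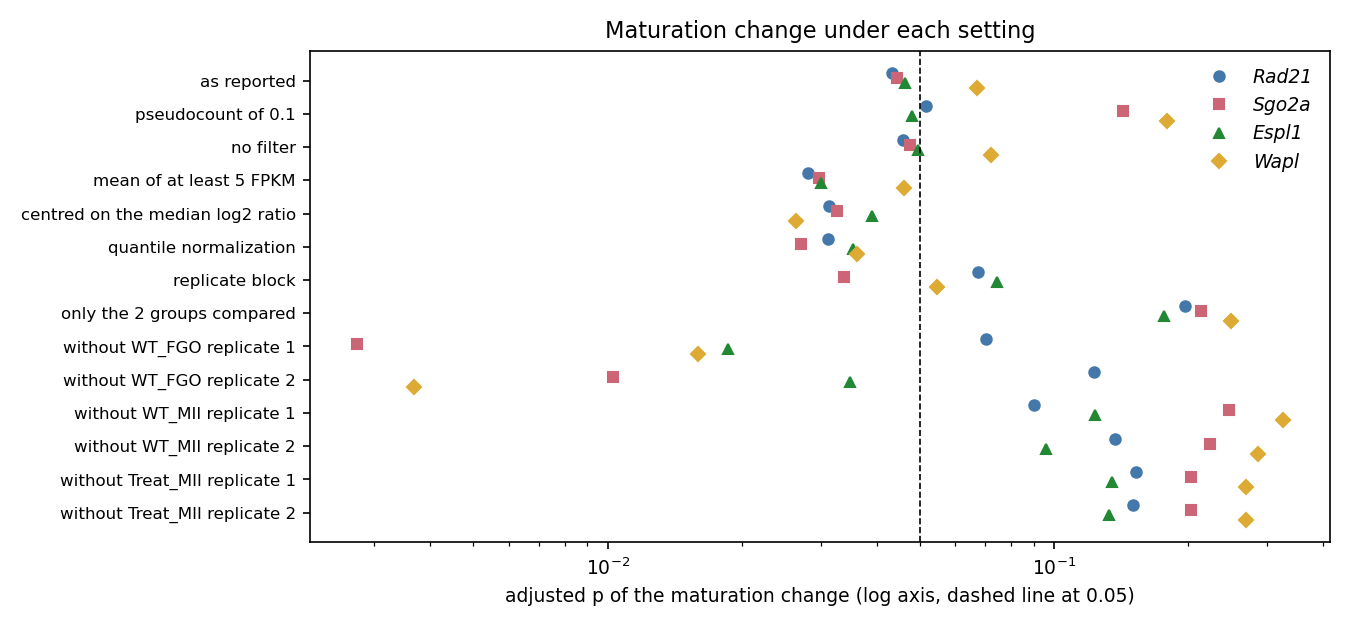
Adjusted p of the maturation change of Rad21, Sgo2a, Espl1 and Wapl on a log x axis, for the fit as reported and each of 13 alternatives on the y axis, with a dashed line at 0.05. Fits that leave out a library keep a single library in its group, whose spread is then taken from the other groups. Points left of the line are calls: Rad21 keeps its call in 4 of the alternatives, Sgo2a and Espl1 in 7 each, and Wapl, not called in the reported fit, passes in 5.

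Set side by side within libraries, the general subunits took most of the footprints of cohesin. Rad21 held 100% of the FPKM of the 3 kleisins (Rec8, Rad21 and Rad21l) in both WT_FGO libraries, on only 9 and 6 reads. Its share was 97.6% and 97.1% in WT_MII, and 85.0% and 88.3% in Treat_MII. The remainder in MII libraries was almost all Rad21l, a further meiotic kleisin, at 3.66 and 7.85 FPKM in the controls (4 reads) and at 20.05 and 19.7 FPKM after treatment (20 reads). Both treated libraries thus lay above both controls, with a change of 1.70 and an adjusted p of 0.931.

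The summed FPKM of Rec8, Smc1b and Stag3 was 22.5 and 22.3 at the GV stage, 9.64 and 1.16 in control MII libraries, and 11.4 and 3.79 in treated MII libraries. Their general counterparts Rad21, Smc1a, Stag1 and Stag2 summed to 104 and 66.7 FPKM, 252 and 320 FPKM, and 203 and 221 FPKM in the same order. The sum of Rec8, Smc1b and Stag3 was thus lower in every MII library than in either GV library, and the general sum was higher. The former rested on 8 and 9 reads in WT_FGO, 15 of them from Smc1b, 6 and 1 in WT_MII, and 13 and 4 in Treat_MII. Rad21 was the largest of the general genes in every MII library. Smc1a went the other way, with a mean of 31.4 FPKM in WT_FGO and 9.72 in WT_MII. With the meiotic kleisin Rad21l added, the meiosis-specific sum stood at 13.3 and 9.002 FPKM in WT_MII and at 31.4 and 23.5 FPKM in Treat_MII, where it was above both GV libraries. These sums are descriptions and carry no test.

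Both SMC1 genes had their highest values at the GV stage. Smc1a, the general SMC1, was at 40.1 and 22.7 FPKM in GV oocytes, 14.7 and 4.68 in control MII oocytes, and 14.7 and 10.8 after treatment, with a maturation change of -1.72 (adjusted p 0.266). The share of Smc1b in SMC1 reads was 39.5% in WT_FGO (exact 95% interval 24.0 to 56.6), 31.6% in WT_MII (12.6 to 56.6) and 32.6% in Treat_MII (19.1 to 48.5), and the intervals overlapped throughout. The FPKM of both SMC1 genes together, divided by that of their ring partner Smc3, was 6.88 and 2.38 at the GV stage, 0.353 and 0.234 in control MII libraries, and 0.567 and 0.356 in treated MII libraries. The ratio was above 1 in both GV libraries and below 1 in all 4 MII libraries. In the GV libraries it divided by only 3 and 7 Smc3 reads. The ratio carries no test, and neither SMC1 gene nor Smc3 passed the maturation test.

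Among the SA subunits, Stag3 held 2 of 13 reads in WT_FGO, 1 of 106 in WT_MII and 2 of 149 in Treat_MII. Stag1 was at 13.8 and 7.28 FPKM in GV oocytes, 28.4 and 32.7 in control MII oocytes, and 35.4 and 32.1 after treatment. Stag2 was at 0 and 7.35, 59.0 and 23.9, and 29.4 and 29.6 FPKM in the same order. Both lay higher in every MII library than in either GV library, with maturation changes of 1.51 (adjusted p 0.201) and 3.74 (adjusted p 0.115). Among the shugoshins, Sgo2a held 84.9% to 98.0% of the summed FPKM of Sgo1, Sgo2a and Sgo2b in the 4 MII libraries. Sgo2b itself had 8 reads in WT_FGO, of which 7 lay in WT_FGO_2, and 3 and 6 in the MII groups. Pds5a stood at 51.6 and 70.3 FPKM at the GV stage, 17.7 and 10.5 in control MII libraries, and 35.3 and 19.4 in treated MII libraries, a maturation change of -2.06 with an adjusted p of 0.106, while the groups of Pds5b overlapped.

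**Figure D4:**
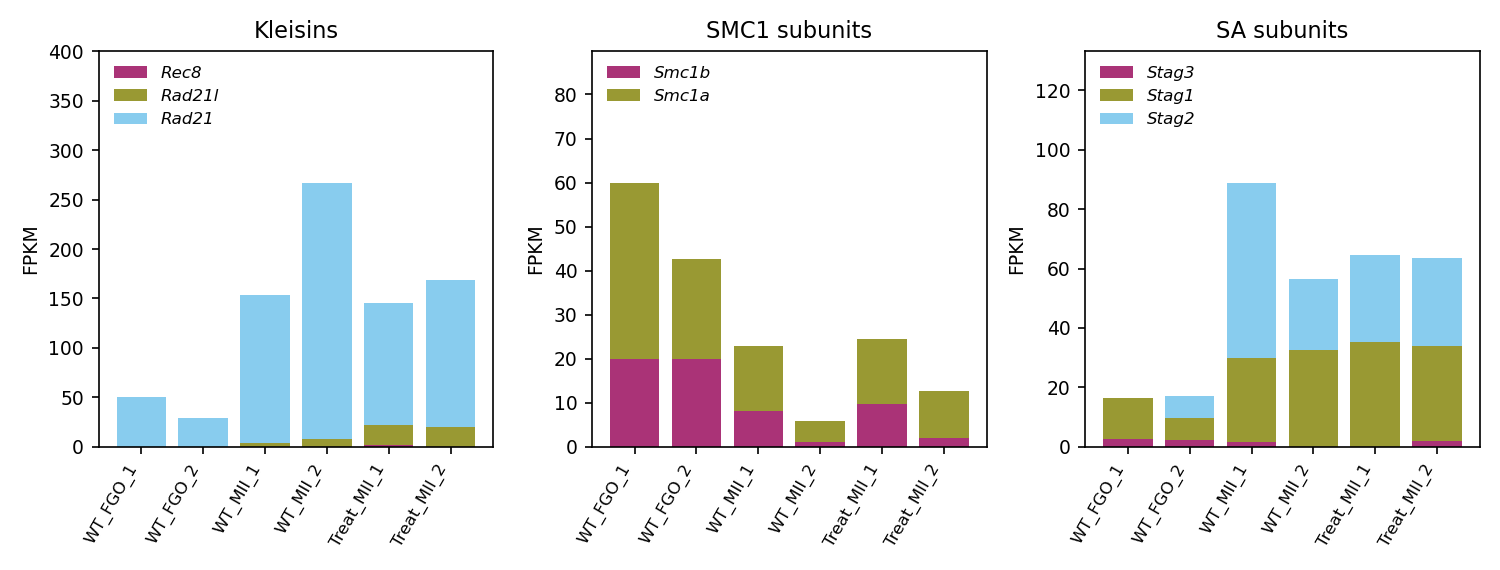
FPKM of the kleisins, SMC1 subunits and SA subunits in each of the 6 libraries, stacked by gene with meiosis-specific Rec8, Smc1b and Stag3 at the bottom, each panel on its own y axis from 0. Rad21 makes up 85.0% to 100% of each kleisin bar, SMC1 bars are tallest in WT_FGO, and SA bars are tallest in the MII libraries.

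The order of the 10 genes by FPKM differed between stages. In WT_FGO, Espl1 (41.1 ± 12.6 FPKM, SD, n = 2) and Rad21 (39.7 ± 14.7) led and did not differ beyond their spread. Smc1b was next at 19.9 ± 0.07 FPKM on 7 and 8 reads. Its range did not overlap those of Rad21 and Smc3, its neighbours in rank. In WT_FGO_2, however, Smc3 was close at 17.9 FPKM, on 7 reads against 8. Smc1b also lay within the range of Pds5b (2.40 to 21.1 FPKM). The ranges of Smc3, Pds5b, Wapl, Sgo2a and Stag3, ranked below it, overlapped from one to the next. In WT_MII, Rad21 (204 ± 77.5 FPKM), Wapl (182 ± 33.8) and Espl1 (152 ± 18.4) led with overlapping ranges. Then came Sgo2a (116 ± 15.1), Smc3 (44.8 ± 28.2) and Sgo1 (13.4 ± 3.16), each with a range above that of the next. For Sgo1 the margin was small, with 11.2 FPKM on 4 reads in WT_MII_2, where Pds5b was at 10.8 on 11 reads. In Treat_MII the order was Wapl (189 ± 9.02 FPKM), Espl1 (168 ± 0.61), Rad21 (136 ± 17.7) and Sgo2a (121 ± 9.64), of which only Rad21 and Sgo2a overlapped.

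No change with treatment was called for any of the 10 genes. The comparison of Treat_MII with WT_MII asks how footprints differed between treated and control oocytes that the labels both call MII. The paper reports that BYBX lowered the rate of polar body emission, and that treated oocytes which reached MII had abnormal spindles. How the oocytes of these libraries were staged is not stated, and whether the groups were equally staged was not tested. With limma, 0 of the 9 genes tested were called, against 0.0% of all 15127, and at an unadjusted p under 0.05 there were again 0 of the 9, against 5.83% of all. The groups overlapped for 7 of the 9 genes, with Espl1 higher and Rad21 lower in both treated libraries, against 16.2% and 15.6% of all tested genes.

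Rad21 had the change furthest from 0 among the well-covered genes. Its treatment change was -0.54, with a 95% interval from -1.69 to 0.62 and an adjusted p of 0.945, and without WT_MII_2, the highest library, it was -0.14. By reads alone, treated over control was 0.632 (95% counting interval 0.504 to 0.793, 156 and 161 reads), which leaves out the spread between WT_MII_1 and WT_MII_2 (47 and 114 reads). For Espl1 the change was 0.15 (interval -0.81 to 1.12) and the read rate ratio 1.12 (0.989 to 1.28).

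For the others the fit gave wide intervals. The treatment difference was 0.06 (-2.54 to 2.67) for Sgo2a, 0.07 (-3.08 to 3.23) for Wapl and -0.04 (-1.73 to 1.66) for Smc3, none past the test. The read rate ratios were 1.07 (0.870 to 1.31) for Sgo2a, 1.06 (0.906 to 1.25) for Wapl and 0.957 (0.681 to 1.35) for Smc3. These counting intervals leave out the spread between libraries, so they do not bound the treatment difference. The remaining tested genes, Smc1b, Stag3, Sgo1 and Pds5b, rested on 1 to 35 reads in a group, and their intervals all spanned 0. Pds5b, the gene with the 5′ UTR G-quadruplex motif, differed by 0.49 (-2.12 to 3.09, adjusted p 1.0), and its relative Pds5a by 0.89 (-0.58 to 2.36, adjusted p 0.931), with both treated libraries above both controls.

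Treat_MII against WT_FGO shares its libraries with both other comparisons and is given for the values alone. None of the 9 genes was called, against 3.87% of all tested genes called in either direction, and 5 had an unadjusted p under 0.05, against 19.9%. The closest were Espl1 at 2.04 (adjusted p 0.0508), Sgo2a at 5.26 (0.0588), Wapl at 5.44 (0.0861) and Rad21 at 1.79 (0.106). As with maturation, 6 genes lay above and 2 below WT_FGO in both libraries, against 16.6% and 28.9% of all tested genes.

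Genes that load, acetylate or keep cohesin (9 listed, all tested) had 1 called higher and 1 called lower with maturation, against 3.67% and 3.09% of all tested genes. Hdac8, the deacetylase that recycles SMC3, was at 0 FPKM in both WT_FGO libraries, at 59.0 and 11.5 in control MII oocytes and at 69.4 and 64.2 after treatment. It rose with maturation (adjusted p 0.0377) and was also higher in Treat_MII than in WT_FGO (adjusted p 0.0250). Set against a floor of 3 reads over the GV group, the read rate in WT_MII was 2.38-fold higher. The observed reads were 14 in WT_MII (11 and 3) against 0 in WT_FGO. The 95% counting interval of the ratio of these observed reads began at 1.69. Ddx11, a helicase that aids cohesion during replication, was at 129 and 89.2 FPKM in GV oocytes, 17.8 and 23.9 in control MII oocytes, and 22.2 and 25.4 after treatment, and fell by 2.32 with maturation (adjusted p 0.0498). The list's median change was 0.47, beside -0.44 for all tested genes.

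Of 18 genes that control cleavage or act with the protectors, 16 were tested, and 1, Ppp2ca, was called lower with maturation, against 3.09% of all tested genes. This catalytic subunit of PP2A, the phosphatase that shugoshin brings to the centromere, was at 68.6 and 101 FPKM at the GV stage, 6.54 and 9.34 in control MII libraries, and 26.0 and 15.7 in treated MII libraries. It fell by 3.25 (adjusted p 0.0333), and 3 reads in WT_MII against 16 gave a read rate ratio of 0.0955 (95% counting interval 0.0178 to 0.334). Csnk1d, a casein kinase 1 isoform of the family that phosphorylates REC8, was at 1167 and 1552 FPKM in GV oocytes, 667 and 520 in control MII oocytes, and 510 and 526 after treatment. It was called lower only in Treat_MII against WT_FGO (-1.38, adjusted p 0.0464), and its maturation change of -1.19 had an adjusted p of 0.0504. The list's median maturation change was -0.90, beside -0.44 for all tested genes.

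Condensin and SMC5/6, the other SMC complexes (14 genes, all tested), had 1 gene called higher and 1 called lower with maturation, against 3.67% and 3.09% of all tested genes. Smc4, a core subunit of both condensins, was at 222 and 374 FPKM at the GV stage, 11.0 and 7.85 in control MII libraries, and 37.5 and 37.6 in treated MII libraries. It fell by 4.81 with maturation (adjusted p 0.0058), a read rate ratio of 0.0302 (95% counting interval 0.0163 to 0.0517). Both treated libraries lay above both controls, with a change of 1.90 and an adjusted p of 0.713. Ncapg2, a condensin II subunit, went the other way, with 9.32 and 2.73 FPKM in GV oocytes, 123 and 126 in control MII oocytes, and 133 and 116 after treatment. It rose by 4.33 (adjusted p 0.0153), and its treatment change was -0.0010 with an interval from -1.48 to 1.48. The list's median maturation change was 0.11, beside -0.44 for all.

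Of 15 genes of the meiotic chromosome axis, synaptonemal complex and crossover machinery, 13 were tested and 1 was called higher with maturation, against 3.67% of all tested genes. Msh4, which stabilizes crossover intermediates in prophase, was at 3.63 and 6.38 FPKM at the GV stage, 49.8 and 38.5 in control MII libraries, and 35.1 and 42.2 in treated MII libraries. It rose with maturation by 2.94 (adjusted p 0.0426), with 50 reads against 3. The list's median maturation change was -0.32, again beside -0.44. None of the genes in these lists was called with treatment.

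Rad21 had the highest mean level of the 10 genes over all 6 libraries, 127 FPKM, with Wapl almost level with it, though it ranked 2 in WT_FGO and 3 in Treat_MII and averaged 100.2 FPKM against 120.4 for Wapl without WT_MII_2. The 5 genes whose log2(FPKM + 1) tracked it most closely over the 6 libraries, among 6387 with a mean of at least 10 FPKM, were Brd7 (Pearson r 0.994), Slc30a3 (0.994), Zfp692 (0.993), Unk (0.992) and Tor1a (0.991). Brd7, a chromatin remodeling subunit, ran from 38.0 and 28.6 FPKM in WT_FGO to 106 and 155 FPKM in control MII oocytes and 97.4 and 102 after treatment. With 6 points that share 3 groups and their libraries, r above 0.95 was reached by 117 genes, so the likeness is a description only.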

How the data were processed

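Ribo-lite libraries were made from mouse oocytes (6 libraries, 3 groups of 2, grouped by title). The authors deposited FPKM per library, scaled to coding length and library reads with no stated spike-in, so a change in total footprints per oocyte cannot be seen. Their processing notes list cutadapt 1.14, Bowtie2 2.2.2, STAR 2.5.3a and mm10; the counter, annotation release and treatment of molecular identifiers are not given in the sources used here. After 26 entries with repeated names were left out, 22416 genes remained. Reads behind each value were recovered from FPKM and GENCODE M21 coding lengths (GRCm38); 96.2% of tested genes gave whole reads in all 6 libraries within 0.02, including all 10 studied here. Csnk1d did not. Libraries held 94309 and 107251 (WT_FGO), 164972 and 230907 (WT_MII), and 331304 and 275604 (Treat_MII) reads. Replicates differed beyond sampling noise (chi-square per degree of freedom 1.60 to 8.78, highest in WT_MII), so none was a repeat deposit. The Spearman correlation between replicates over all tested genes was 0.50 in WT_FGO, 0.61 in WT_MII and 0.73 in Treat_MII.

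The 15127 genes averaging 1 FPKM or more were fitted as log2(FPKM + 1) with limma 3.58.1 (R 4.3.3; lmFit, eBayes with trend), all 6 libraries and 3 groups together, no covariate, with Benjamini-Hochberg adjustment. A change on this scale understates that of low genes. No source says that the 2 libraries of a group came from separate animals, so p-values measure only the spread between these libraries. Read rate ratios have exact 95% intervals, which like the floor of 3 reads cover counting error only. The script was tested on simulated data. Transcripts were scanned for motifs in GENCODE M21; no protein sequence is shown. All 10 genes, their alternative subunits, list genes called in at least 1 comparison and the 5 genes most like the gene of highest mean are named. Genes and lists were chosen with earlier results of these data known. Alternatives were another pseudocount, filter, normalization, replicate block, 2-group fits and leaving out each library.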

Additional observations from a re-analysis of the deposited data

How the results depend on the processing

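With maturation, 3 genes were called in the fit as reported (Rad21, Sgo2a and Espl1). The count was 1 with a pseudocount of 0.1 (Espl1), 4 with a minimum mean of 5 FPKM, with median centring and with quantile normalization (Wapl added), 3 with no filter, 0 with only the 2 groups compared, and 0 to 3 when 1 library was left out (0 without either WT_MII or either Treat_MII library, and Sgo2a, Espl1 and Wapl without either WT_FGO library). For Treat_MII against WT_FGO the count of 0 became 2 with a minimum mean of 5 FPKM (Sgo2a and Espl1), 3 with median centring and 3 with quantile normalization (Wapl added), and 0 to 3 when 1 library was left out. The treatment count was 0 under all 13 alternatives. With the replicate number as a block, 1 gene was called with maturation and 1 in Treat_MII against WT_FGO, Sgo2a in each; the numbers were not taken as pairs, since deviations of same-numbered libraries correlated at 0.034, 0.018 and 0.019.

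Centring on the median log2 ratio moved the median maturation change of all genes from -0.44 to 0.02 and the calls from 555 higher and 468 lower to 758 and 305, and for Treat_MII against WT_FGO from 433 and 152 to 594 and 65; quantile normalization gave 686 and 402 with maturation. All genes called with maturation numbered 1023, and 0 with 2 groups alone or 0 to 1843 with 1 library left out; for Treat_MII against WT_FGO 585 became 32, or 140 to 1604; the treatment count of 0 ran to 418 with 1 library left out. Leaving out a library leaves its group with 1, which the fit takes to vary like the other groups. Directions of the maturation change held under every alternative run for Smc1b, Smc3, Stag3, Rad21, Sgo1, Sgo2a, Espl1 and Wapl, and Stag3 gave no value at 5 FPKM. Signs turned only for changes that were not called. With treatment, centring gave -0.033 for Stag3, -0.050 for Sgo2a and -0.044 for Wapl, and quantile normalization gave -0.36 for Stag3. Leaving out 1 library gave treatment changes of -0.70 to 1.38 for Smc1b, -0.71 to 0.63 for Smc3, -0.67 to 0.84 for Stag3, -2.09 to 0.38 for Sgo1, -0.067 to 0.20 for Sgo2a and -0.12 to 0.26 for Wapl, and for Pds5b -1.20 to 1.50 with maturation and -0.71 to 1.99 in Treat_MII against WT_FGO. Depth limits Rec8, Stag3, Sgo1 and Smc1b most, with 1 to 35 reads over all libraries.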
